A study of Homo sapiens with 2 samples.

Results

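The deposited list of peaks from RNA immunoprecipitation followed by sequencing (RIP-seq) in ARP1 cells was searched for CACYBP and S100A11. ARP1 is an established human multiple myeloma cell line. RNA recovered with an anti-SFRS8 antibody (the IP library, n = 1) was set against RNA taken without antibody (the input library, n = 1). SFRS8 (SFSWAP) is a protein that regulates the splicing of pre-mRNA, and the series asks what it acts on in myeloma. Every row under either gene symbol was taken and rows of the same position and strand were counted once, which gave 2 of the 236 distinct peaks in the list, 1 for each gene. Neither library had a replicate, so no test between them was made. Reads of one library could not be scaled to the other because library totals were not in the list. The protocol text in the labels names an antibody against m6A as well, and whether that step was used for these libraries is unclear.

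CACYBP encodes calcyclin-binding protein, also called SIP, which binds the ubiquitin ligase SIAH1 and the adaptor SKP1 and in this way links them in the degradation of beta-catenin, the effector of Wnt signalling. It takes its name from its binding to calcyclin, the protein of S100A6. S100 proteins are small calcium-binding proteins with paired EF-hand motifs that mostly act as dimers and expose a binding surface for partner proteins when calcium is bound. S100A11 is a member of this family and is best known as a partner of annexin A1. Calcyclin is a different member of the family from S100A11.

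Both genes had a peak with many control reads and close to the fewest IP reads of any peak in the list. The CACYBP peak held 12 IP reads and 241 control reads. The S100A11 peak held 11 IP reads and 245 control reads. The genes therefore lay side by side in the order of control reads, as the peaks with the 98th and 97th highest numbers. No listed peak had fewer than 11 IP reads, 28 peaks (11.9%) had 11 and 16 had 12. The genes were chosen by name with these read numbers and ratios already known, so the members count as selected on the reads of both libraries and all comparisons of them below are descriptions.

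Strength was measured as IP reads divided by control reads of the same peak, the ratio. CACYBP had a ratio of 0.0498 (exact Clopper-Pearson 95% interval 0.0254 to 0.0886) and S100A11 a ratio of 0.0449 (0.0221 to 0.0818). The CACYBP ratio was 1.11 times that of S100A11, with a conditional exact 95% interval of 0.438 to 2.83, a quotient in which the unknown library depths cancel. The order of the genes was thus not resolved by their reads. Intervals of ratios and of shares of reads cover counting error only, since reads copied by PCR were not marked by molecular identifiers and need not stand for separate molecules. CACYBP took 0.0994% (0.0514 to 0.174) of the 12068 IP reads in peaks and 0.276% (0.242 to 0.313) of the 87259 control reads in peaks. S100A11 took 0.0912% (0.0455 to 0.163) of the IP reads in peaks and 0.281% (0.247 to 0.318) of the control reads in peaks. In both genes the share of IP reads was below the share of control reads, and the intervals of these shares did not overlap. How many of all listed peaks met the same rule was not counted, so this does not set the genes apart. The header of the list does not name the libraries. The count without a prefix was read as IP and the one with the prefix CTL as input. The former was at least 11 in every peak, whereas the latter fell to 0 in some. The opposite reading would invert each ordering by ratio within a given set of peaks. The places given below are by the first reading. Those by the opposite reading, in the same sets of peaks, stand beside the main ones.

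**Figure D1:**
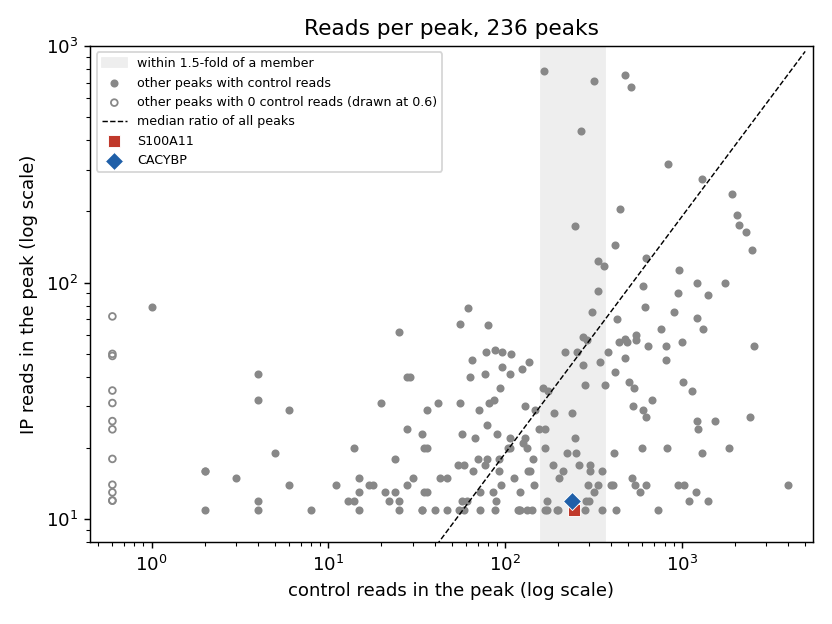
IP reads against control reads in each of the 236 distinct peaks, both axes on a log scale; each point is 1 peak, the dashed line is the median ratio of all peaks and the grey band spans control reads within 1.5-fold of CACYBP or S100A11. CACYBP (12 IP and 241 control reads) and S100A11 (11 and 245) lie almost on each other at the lower edge of the band, where no peak has fewer than 11 IP reads.

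Both ratios had intervals wholly below the median ratio of all peaks, 0.190, and 40.3% of all peaks met the same rule. In the order from the lowest ratio, S100A11 stood at place 34 and CACYBP at place 41 of 236. Low ratios went with many control reads across the list. Spearman's rho between ratio and control reads was -0.82 over the 236 peaks, which share the control count on both axes and the minimum of 11 IP reads. With the peaks ordered by control reads and divided into 4 groups of 59, the median ratio was 1.38, 0.228, 0.0959 and 0.0568 from the fewest to the most control reads. CACYBP and S100A11 fell in the third of these groups, which ran from 146 to 439 control reads, and both lay below its median.

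Against peaks of similar control reads the ratio of CACYBP was low but within the range. Of the 44 other peaks with control reads within 1.5-fold, from 164 to 353, 10 had a lower ratio (22.7%, exact binomial 95% interval over these peaks 11.5 to 37.8). With the libraries read the other way, 34 of these same 44 (77.3%) would stand below it, though the set would then be matched on IP reads. Their median ratio was 0.0868, 1.74 times that of CACYBP, and their ratios ran from 0.0312 at a peak of MEF2C, a transcription factor gene, to 4.71 at RNA5-8SN1, an rRNA gene. The intervals of 27 of the 44 peaks overlapped that of CACYBP, 17 lay wholly above it and 0 wholly below it. Of these 44 peaks, 63.6% had an interval wholly below the median of all peaks. Matched on control reads per kilobase of peak in place of control reads, 6 of 42 other peaks (14.3%) had a lower ratio than CACYBP.

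S100A11 also had a low ratio among its own neighbours. Of the 46 other peaks with control reads within 1.5-fold, from 164 to 367, 7 had a lower ratio (15.2%, 6.34 to 28.9). With the libraries read the other way, 39 of these same 46 (84.8%) would stand below it, with the same limit on the matching. Their median ratio was 0.0901, 2.01 times that of S100A11. The intervals of 27 of the 46 overlapped that of S100A11, 19 lay wholly above it and 0 wholly below it. Of these 46 peaks, 63% had an interval wholly below the median of all peaks. Matched on control reads per kilobase, 2 of 7 other peaks (28.6%, 3.67 to 71.0) had a lower ratio. The interval of the CACYBP share by the same matching (14.3%, 5.43 to 28.5) overlapped this one, so the order of these shares was not resolved. The sets of neighbours of CACYBP and S100A11 shared 43 peaks and each set held the other gene, so their places are not separate findings.

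The lowest IP count in the list bounded these places. A peak with the 245 control reads of S100A11 could have had no lower ratio and still match the fewest IP reads listed, 11. For the 241 control reads of CACYBP the lowest ratio of that kind was 0.0456, and its own was 1.09 times as high. Of the 46 neighbours of S100A11, 7 also had 11 IP reads, and 14 had fewer than 15. Of the 28 peaks with 11 IP reads, 5 had more control reads than S100A11, namely those of RRM2, ACTR3, MEF2C, MLEC and 1 unnamed peak. Of the 16 peaks with 12 IP reads, 4 had more control reads than CACYBP, those of RPL12, EVI2B, TUBA1B and ELL2. Except for MEF2C and MLEC, the genes in these 2 lists are named because the lists are short and were chosen after their values were seen.

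**Figure D2:**
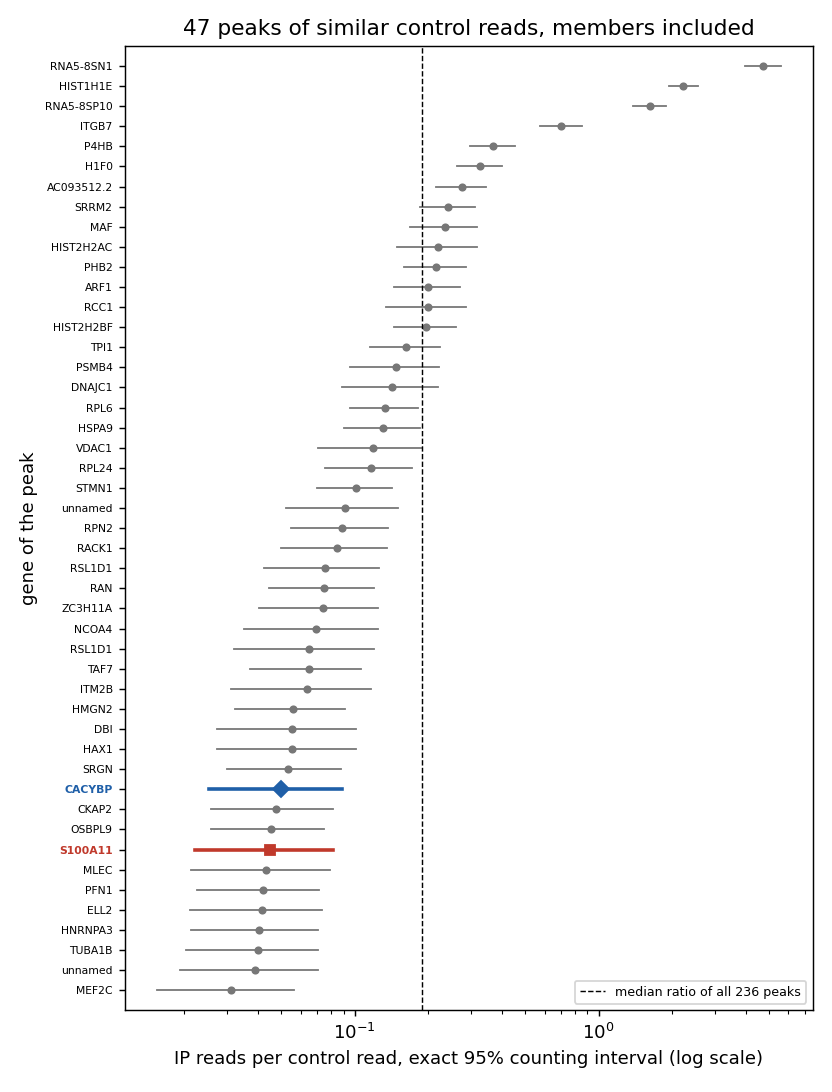
IP reads per control read (log scale) in the 47 peaks with control reads within 1.5-fold of CACYBP or S100A11, these genes included, ordered by ratio; points are the ratio of 1 peak, bars its exact 95% counting interval and the dashed line the median of all 236 peaks. CACYBP (0.0498) and S100A11 (0.0449) lie in the lower part of the order, and the bars of the lowest peaks overlap both.

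The peaks nearest in control reads showed how far IP reads could differ at the same control level. RPL24, a ribosomal protein gene, had the same 241 control reads as CACYBP and 28 IP reads, a ratio of 0.116 (0.0756 to 0.172). RACK1, which encodes a scaffold protein of the small ribosomal subunit, had 19 IP against 224 control reads and a ratio of 0.0848. MAF, a transcription factor gene overexpressed in some myelomas, had 51 IP against 218 control reads and a ratio of 0.234 (0.169 to 0.319). On the side of more control reads, RPN2, a subunit gene of oligosaccharyltransferase, had 22 IP against 248 control reads and a ratio of 0.0887. ITGB7, the beta-7 integrin gene, had 174 IP against 249 control reads and a ratio of 0.699 (0.572 to 0.852). MLEC, which encodes the endoplasmic reticulum lectin malectin, had 11 IP against 253 control reads and a ratio of 0.0435 (0.0214 to 0.0791). The intervals of MAF and ITGB7 lay wholly above those of CACYBP and S100A11, whereas those of MLEC, RPN2, RACK1 and RPL24 overlapped the interval of each gene.

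The peaks differed in shape as much as they were alike in reads. The CACYBP peak (ENSG00000116161) was 5500 bases wide, at chr1:175010001-175015500 on the plus strand of GRCh38. The S100A11 peak (ENSG00000163191) was 220 bases wide, at chr1:152032541-152032760 on the minus strand. CACYBP therefore had a peak 25 times as wide, the 184th narrowest of 236 against the 8th narrowest for S100A11. Per kilobase of peak, CACYBP had 2.18 IP reads and 43.8 control reads, and S100A11 had 50 IP reads and 1114 control reads. S100A11 had the 4th highest density of control reads of all peaks and CACYBP the 134th. By density of IP reads S100A11 stood at place 37 and CACYBP at place 216.

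The widths followed a grid of fixed bins. On chromosome 1 the widths of all 13 minus-strand peaks were whole multiples of 220 bases, those of all 27 plus-strand peaks were whole multiples of 250 bases, and every start lay on the same grid. The S100A11 peak was a single bin, as were those of RNU1-3, a U1 small nuclear RNA gene, and CROCC, a centrosomal protein gene, among the 40 peaks of chromosome 1. The CACYBP peak was 22 bins long. Its reads averaged 0.545 IP reads and 10.95 control reads per bin, against 11 and 245 in the single bin of S100A11. The 12 IP reads of CACYBP could thus not have covered all of its bins if each read was counted in 1 bin.

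Among peaks of similar width the ratios were again in the lower part. Of the 43 other peaks within 1.5-fold of the width of CACYBP, 10 had a lower ratio (23.3%, 11.8 to 38.6), with a median of 0.116, and 53.5% had an interval wholly below the median of all peaks. Of the 12 other peaks within 1.5-fold of the width of S100A11, 1 had a lower ratio (8.33%, 0.211 to 38.5), with a median of 0.187, and 33.3% had an interval wholly below the median of all peaks. The interval of that share is wide because few peaks are so narrow. With the libraries read the other way, 33 of the 43 (76.7%) would stand below CACYBP and 11 of the 12 (91.7%) below S100A11. Similar in both control reads and width to CACYBP were 9 peaks, of which 3 had a lower ratio, and their median of 0.0556 was 1.12 times the ratio of CACYBP. They ran from HNRNPA3, which encodes an hnRNP protein, with 13 IP and 320 control reads (0.0406), to P4HB, a protein disulfide isomerase gene, with 124 IP and 337 control reads (0.368, 0.297 to 0.453). For S100A11 only VDAC1 was similar in both.

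The peaks most like each gene were found by the distance over IP reads, control reads and width, each as log2, among the other 235 peaks. Those nearest to CACYBP were all on plus strands. In order of distance they were MLEC (0.40), HNRNPA3 (0.44), ITM2B (0.55), ZC3H11A (0.60) and HAX1 (0.63). ITM2B, a membrane protein gene, had 11 IP against 173 control reads and a ratio of 0.0636. ZC3H11A, a zinc finger gene tied to mRNA export, had 15 IP against 203 control reads and a ratio of 0.0739. HAX1, an anti-apoptotic mitochondrial protein gene, had 11 IP against 199 control reads and a ratio of 0.0553. Their ratios, with those of MLEC and HNRNPA3, all had intervals that overlapped that of CACYBP.

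S100A11 had no peak as close. The nearest were VDAC1 (1.02), CROCC (1.02), YBX3 (1.04), RNU1-3 (1.05) and RSL1D1 (1.11), while CACYBP lay at a distance of 4.65. VDAC1, the gene of a channel of the outer mitochondrial membrane, had 20 IP against 169 control reads and a ratio of 0.118 (0.0705 to 0.189). YBX3, a cold-shock domain RNA-binding protein gene, had 11 IP against 119 control reads and a ratio of 0.0924. CROCC had 11 IP and 122 control reads, RNU1-3 had 13 and 121, and the nearer of the RSL1D1 peaks, a nucleolar protein gene, had 11 and 169. All 5 had fewer control reads than S100A11. ZC3H11A, CROCC, RRM2 and EVI2B had peaks that the list also gives under another gene, so the assignment of those reads is uncertain.

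The position of each peak was read against its gene as the list gives it and against RefSeq on the same build (GRCh38.p14). The S100A11 peak lay wholly inside the gene, from 254 to 35 bases before its 3′ end at 152032506, an end that RefSeq shares. The list gives the gene a span of 15402 bases, and RefSeq gives it 4499. The peak filled 1.43% of the former and 4.89% of the latter. Exon positions were not used here, so the peak was not assigned to an exon or to a UTR.

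The CACYBP peak started 1714 bases before the 3′ end of the gene and ran 3785 bases past it. Of its 5500 bases, 1715 (31.2%) lay in the gene as the list gives it, from 174999163 to 175011715, and 2027 (36.9%) lay in the RefSeq span, which ends at 175012027. Another 2543 bases (46.2%) lay in MRPS14, a mitochondrial ribosomal protein gene on the opposite strand, whose RefSeq span begins at 175012958. The remaining 930 bases (16.9%) lay between these genes. The list gives 1 count per library for the whole peak, so its reads could not be divided among CACYBP, the stretch between the genes and MRPS14. The list gives the peak the strand of CACYBP, but whether reads were counted by strand is not stated in the sources used here. Without strand, reads of genes on opposite strands cannot be told apart. Neither peak reached a promoter window of any gene in the RefSeq table, and the nearest window of its own gene was 10005 bases away for CACYBP and 4195 for S100A11.

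**Figure D3:**
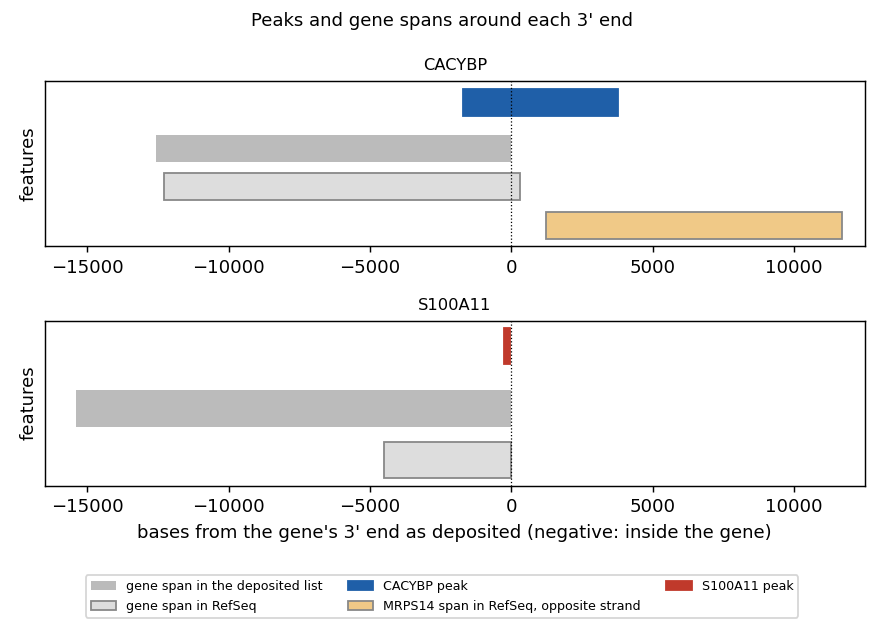
Position of each peak and of gene spans in bases from the 3′ end of the gene as deposited, with negative values inside the gene; the upper panel is CACYBP with MRPS14 on the opposite strand and the lower panel is S100A11. The CACYBP peak runs from 1714 bases before the gene's end to 3785 bases past it and into MRPS14, while the S100A11 peak is a narrow block from 254 to 35 bases before the gene's end.

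The authors' deposited scores and p-values set these genes apart, as their read densities did, although their total reads per peak were alike. S100A11 had, in the authors' deposited table, a log-odds score of 333, the 23rd highest of 236, and CACYBP one of 36.1, the 168th highest. The authors' deposited table gave the corresponding control scores as -283 for S100A11 and -28.9 for CACYBP. The deposited p-value of S100A11 was exactly 0, as were its adjusted p-value and empirical false discovery rate in the authors' deposited table, and 62 peaks had a p-value of 0. CACYBP had a p-value of 6.75e-16, an adjusted p-value of 6.24e-15 and an empirical false discovery rate of 6.75e-16 in the authors' deposited table. How these values were computed is not stated in the sources used here, and the score need not be on 1 scale over chromosomes and strands. On chromosome 20, PTPRA and RPN2 had deposited scores of 277 and 272 with deposited p-values of 0.000154 and 0.0476. Their scores were thus above that of CACYBP and their p-values far larger. Places by score over the whole list are given with this limit.

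The authors' score went with the density of control reads. Over the 236 peaks Spearman's rho of the score was 0.78 with control reads per kilobase, 0.44 with IP reads per kilobase and -0.49 with the ratio, as a description of peaks that share libraries and widths. Of the 23 peaks with a score at least as high as that of S100A11, 22 had more control than IP reads, and their median ratio was 0.0755. Ranked by this score, 39 of the 46 neighbours of S100A11 in control reads (84.8%) stood below it, against 15.2% by the ratio. Exchanging the libraries in this same set would give 84.8% by the ratio too. The peaks then above S100A11 were mostly not those above it by the score. By the same score 2 of the 44 neighbours of CACYBP (4.55%) stood below it, and by the deposited p-value 4 (9.09%) did. By the ratio 22.7% stood below CACYBP, or 77.3% with the libraries exchanged. These are places of single peaks, and which reading of the libraries is right was not tested.

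**Figure D4:**
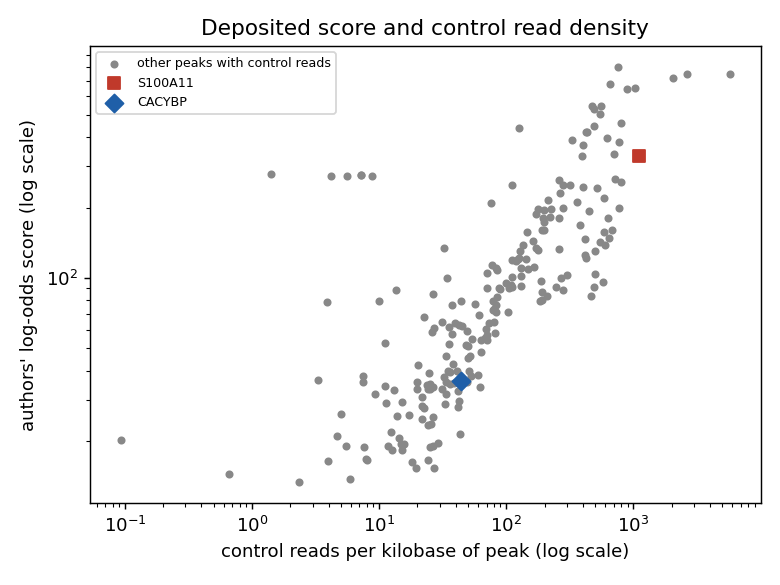
The authors' deposited log-odds score against control reads per kilobase of peak, both on log scales, for peaks with control reads; each point is 1 peak. S100A11, with a score of 333 at 1114 control reads per kilobase, lies at the upper right, and CACYBP, with 36.1 at 43.8, in the lower part of the cloud.

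Genes of the S100 family and of calcyclin-binding protein partners were looked up by name, beside 206 protein-coding genes with a peak in the list for 20056 in RefSeq (1.03%). Of 19 S100 family genes, S100A11 was the only one with a peak, and S100A6, the gene of calcyclin, had none in the list. The family has 15 members on chromosome 1, between 151982915 and 153634361, and the S100A11 peak was the only listed peak in these 1651 kb. S100A6 lies 1502 kb from it. Of 25 genes of calcyclin-binding protein partners, among them SIAH1, SKP1 and beta-catenin (CTNNB1), TPM3 had a peak. This tropomyosin gene had 14 IP and 406 control reads. Its ratio was 0.0345, and the interval (0.0187 to 0.0585) did not reach the median over the list. How strongly the genes without a peak were expressed was not measured here, so their absence does not show that they lacked bound RNA.

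Among genes of other calcium-binding proteins, 1 annexin gene and 1 EF-hand gene had a peak. Of 12 annexin genes, a separate family of calcium-dependent membrane-binding proteins, ANXA11 had a peak with 12 IP against 61 control reads and a ratio of 0.197 (0.0964 to 0.369). Of 20 other genes of EF-hand calcium sensors, EFHD2 had a peak with 11 IP against 47 control reads and a ratio of 0.234 (0.109 to 0.458). The intervals of both held the median of all peaks, 0.190. Both peaks had far fewer control reads than S100A11, with the same or nearly the same IP reads.

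CACYBP and S100A11 shared many Gene Ontology terms in the deposited list. Most were broad, such as protein binding, which 175 of the 191 genes with function terms had. The shared term carried by the fewest genes was S100 protein binding, which 3 of these 191 had, the other being ANXA11. The pair was chosen for its link to S100 proteins, so this term is not a separate finding. In the pathway column CACYBP was 1 of 4 listed genes under Wnt signalling. The others were FRAT2, an inhibitor of the kinase that marks beta-catenin for degradation, with 12 IP and 25 control reads (0.48), MYC with 144 and 420 (0.343) and the cyclin gene CCND2 with 13 and 1202 (0.0108, 0.00574 to 0.0186). The peak of CCND2 was also listed with ENSG00000285901, an overlapping gene without a symbol, and its reads cannot be divided between them. CACYBP and FRAT2 thus had the same IP reads and ratios whose intervals did not overlap. These Wnt genes were named after their values were seen.

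Along chromosome 1, which held 40 of the peaks, the genes lay 23.0 Mb apart and each stood well away from other peaks. The nearest peaks to S100A11 were those of the proteasome gene PSMB4, 630 kb before it with 28 IP and 189 control reads (0.148), and of the ribosomal protein gene RPS27, 1959 kb past it with 20 IP and 822 control reads (0.0243). The nearest to CACYBP were those of PRRC2C, an RNA-binding protein gene, 3464 kb before it with 29 IP and 147 control reads (0.197), and of ZC3H11A, 28831 kb past it. Of 8 genes of plasma cell identity, 4 had a peak, beside 206 of 20056 protein-coding genes in RefSeq (1.03%). PRDM1, IRF4, SDC1 and TNFRSF17 had none, and how strongly they were expressed was not measured here. Of the peaks of the other 4 genes, some lay below and some above the list's median. The ratio was 0.00353 for JCHAIN, 0.0568 for XBP1 and 0.256 for MZB1, and it ran from 0.556 to 1.20 over the 3 peaks of ITGB7.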

How the data were processed

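RIP-seq libraries of 1 IP and 1 input sample of ARP1 cells were used as a deposited list of 279 rows. HOMER, FastQC 0.11.5 and the build GRCh38 are named per the submitters' processing notes, while aligner and peak caller are not given in the sources used here. Deposited counts are whole reads per peak, not normalized. Reads per kilobase were computed here from the counts and peak widths, and 2 deposited columns of such values were not used. The deposited log-odds score and p-values are the authors' own and served here only to order peaks. The total depth of the libraries is unknown.

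With pandas 2.3.3 and SciPy 1.17.1 under Python 3.11.15, rows were reduced to 236 distinct peaks, under their protein-coding gene where there was one. A peak with fewer than 3 control reads got a ratio against a floor of 3. Genes without a symbol were named by at least 80% reciprocal overlap with RefSeq (GRCh38.p14). The interval code was tested on simulated data. The genes, lists and tests were chosen with earlier results of these data known. Named were CACYBP, S100A11, list genes with a peak, the 3 peaks nearest in control reads on each side, the 5 most alike, the neighbours along the chromosome and the extremes among peaks similar in both control reads and width. Alternatives varied the matching fold, the peaks compared, the measure and an addition of 0.5 reads. Sequences of the peaks were not used here, and 1 of the gene lists is not reported here.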

Additional observations from a re-analysis of the deposited data

How the results depend on the processing

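Adding 0.5 to all read numbers gave ratios of 0.0518 for CACYBP and 0.0468 for S100A11 and a quotient of 1.10, all within their intervals. Of the 33 alternatives, 27 gave a value inside the interval of the value reported, which for a place is a binomial interval over the peaks compared and is wide for few peaks. All alternatives used the same libraries and most shared peaks with the main setting, so this count does not measure sampling spread. With control reads matched within a tighter or a wider fold, per kilobase or together with width, or with only protein-coding peaks, no chromosome 21 rRNA peaks, IP reads as the measure, or peaks of the same strand (a choice made after the data were seen), 14.3% to 33.3% of neighbours lay below CACYBP. By the authors' p-value this was 9.09% and by their score 4.55%. For S100A11, 6 alternatives gave 13.7% to 28.6%. The share was 0% with width matched as well, where 1 peak was left, and 0% by IP reads, where S100A11 was among the fewest. It was 67.4% by the authors' p-value, with 15 peaks tied at 0, and 84.8% by their score. Among peaks of similar width the shares ran from 16.05% to 26.1% for CACYBP and from 6.25% to 9.09% for S100A11, where a tighter fold and leaving out the rRNA peaks kept all 12 peaks and so could not differ. No paired analysis was possible because each group had 1 library. With 11 or 12 IP reads, depth limits the order of these genes against each other and against most of their neighbours.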

Other observations

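Peaks on plus strands were wider than those on minus strands over the whole list, with a median of 5000 bases for 105 plus-strand peaks and 1075 bases for 131 minus-strand peaks. On chromosome 1 the medians were 2750 and 660 bases, 11 bins of 250 and 3 bins of 220. CACYBP, at 22 bins, lay above the median of its strand, and S100A11, at 1 bin, below that of its own. The authors' deposited table gave a positive log-odds score to all 236 peaks and a negative control score to 228 of them. VDAC1, the peak most like S100A11, had the highest score in the authors' deposited table, 803, with 20 IP and 169 control reads.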
